A study of Mus musculus with 4 samples.

Results

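Layer 5 intratelencephalic (IT) neurons are glutamatergic pyramidal cells of the deep cortex. They send axons to other cortical areas and to the striatum, while the extratelencephalic neurons of the same layer project to the brainstem and spinal cord. Here their nuclei were examined in mice in which a neuronal Cre deletes Sel1L, to ask how the nuclei differ from those of control mice. SEL1L is the adaptor of the E3 ubiquitin ligase HRD1, encoded by Syvn1. Together they carry out endoplasmic reticulum-associated degradation (ERAD), which removes misfolded proteins from the ER. When misfolded proteins build up, cells induce ER chaperones such as BiP through the unfolded protein response (UPR), and the transcription factor ATF4 induces genes of amino acid uptake and synthesis in the integrated stress response.

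Single-nucleus RNA-seq was done on dissected cortex plus hippocampus from mice aged 5 weeks, on the C57BL/6J background. The groups were 2 Sel1L fl/fl controls, which carry the floxed allele, and 2 Sel1L SynCre mice, which carry the floxed allele and a Cre driven by the Synapsin I promoter. The study describes the deletion as reaching only part of the neurons, and which of these nuclei had lost Sel1L was not measured here. Each library was 1 mouse, and nuclei were sorted on a DNA dye. The libraries are called fl/fl 1, fl/fl 2, SynCre 1 and SynCre 2, in each case by label. They held 12599, 8481, 8173 and 7366 nuclei as deposited, and 12362, 8436, 8065 and 7231 after nuclei with 600 genes or fewer or with at least 5% mitochondrial counts were left out.

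Layer 5 IT nuclei were chosen by measured counts of unique molecular identifiers (UMIs, tags that mark captured RNA molecules). A nucleus had to hold at least 2 UMIs of Slc17a7, the vesicular glutamate transporter of cortical pyramidal cells, and at most 1 of Gad1 and Gad2 together, the enzymes of GABA synthesis. It also had to hold a UMI of Il1rapl2 and a UMI of at least 2 of the 5 genes Deptor, Rxfp2, Dkkl1, Shc4 and Susd5, and of fewer than 3 of the 6 layer 6 IT genes Oprk1, Sulf1, Bmp3, Dnah14, Col6a1 and 1700023F02Rik. This left 943 of 36094 kept nuclei, and 943 of the 15168 nuclei that passed the Slc17a7 and Gad terms. By library they numbered 358 in fl/fl 1, 167 in fl/fl 2, 199 in SynCre 1 and 219 in SynCre 2. The genes of the rule are not reported as results. At the edge of the rule, 1539 nuclei held 1 of the 5 genes and stayed outside, 692 held 2 and were inside, and 251 held 3 or more. Of nuclei that met all other terms, 61 held 2 of the 6 layer 6 IT genes and were inside and 23 held 3 and were outside.

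The rule favours deeply sequenced nuclei, since a nucleus must hold several UMIs of low genes. The median layer 5 IT nucleus held 19003 UMIs in fl/fl 1, 16823 in fl/fl 2, 16667 in SynCre 1 and 15075 in SynCre 2, against 12514, 11756, 11821 and 12102 in the other glutamatergic nuclei. Summed over nuclei, the layer 5 IT counts reached 7619709, 3189441, 3664785 and 3655935 UMIs. No barcode of a layer 5 IT nucleus occurred in the layer 5 IT nuclei of another library.

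Cre and sex-linked transcripts were read against the labels before any comparison. The Cre feature had 8 UMIs in layer 5 IT nuclei of SynCre 1 and 10 in SynCre 2, and 0 in fl/fl 2, where 3 UMIs would be 0.941 CPM, the count scaled to the library's total. The library labelled fl/fl 1 had 37, or 4.86 CPM, against 2.18 and 2.74 in SynCre 1 and SynCre 2, so its Cre count went against its label. A UMI of Cre was found in 8.10% of its layer 5 IT nuclei and in 3 of its 1823 nuclei gated on oligodendrocyte markers. Every direction below therefore rests on a control group of which 1 library carried Cre RNA. Where leaving that library out ended a named call or changed the call count of a gene list, this is stated. The contrasts between classes for Bdnf and Etv1 are given without that setting. Xist marked fl/fl 2 and SynCre 2 as female, and Ddx3y marked fl/fl 1 and SynCre 1 as male, so the replicate number stands for sex in both groups.

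The marker genes outside the rule fitted the name in part. Etv1, a transcription factor of layer 5, was the only given marker that the rule did not use. Its mean was 193 ± 75.5 CPM (SD, n = 4 libraries) in layer 5 IT nuclei, 78.4 in other glutamatergic nuclei and 25.7 in nuclei with at least 3 UMIs of Cux2, a marker of the upper layers. Rorb, best known from layer 4 and also found in layer 5 IT cells, was at 250 ± 73.7 CPM against 137 in other glutamatergic nuclei and 274 in Cux2 nuclei, so it does not set layer 5 apart from the upper layers. Genes of other classes were low in part. Bcl11b, which encodes CTIP2 and is high in extratelencephalic neurons, stood at 20.4 ± 1.5 CPM against 123 in other glutamatergic nuclei, Cux2 at 59.1 ± 8.4 against 128, and Foxp2, of layer 6 corticothalamic cells, at 32.4 ± 11.7 against 110. Of the 9 layer 5 IT markers outside the rule, 7 had a higher mean than in other glutamatergic nuclei, among them Hsd11b1 (14.3 against 4.19 CPM), Whrn (26.1 against 15.8) and S100b (29.9 against 11.4). Tox2 (8.87 against 15) and Col27a1 (1.15 against 1.38) were lower, and Endou and Batf3 were near 0, with means of 0.6 and 2.3 CPM. In Cux2 nuclei the means were 4.73 CPM for Hsd11b1, 7.93 for S100b and 22.0 for Whrn. Tcap, counted as higher, was at 2.20 CPM in layer 5 IT nuclei and at 3.60 in Cux2 nuclei, and Endou at 0.64 and 0.63. Thus not all of the 7 set layer 5 IT nuclei apart from the upper layers. Of 9 extratelencephalic markers 7 had a lower mean than in other glutamatergic nuclei, while Fezf2 (17.9 against 17.0 CPM) and Vat1l (21.6 against 21.1) did not. The 9 markers summed to 130 CPM in layer 5 IT nuclei and 119 in Cux2 nuclei, so as a sum they were not lower than in the upper layers. In Cux2 nuclei Bcl11b was at 22.6 CPM, Vat1l at 20.9 and Fezf2 at 2.86. Of 8 markers of hippocampal excitatory neurons 6 were lower, while Cpne4 (247 against 205 CPM) and Mpped1 (113 against 110) were not. Of 6 markers of near-projecting cells, a list that also holds Etv1, 4 were lower, while Etv1 and Tshz2 (390 ± 113 CPM against 365) were not.

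Beyond the rule, and among the 7549 genes with a UMI in at least 20% of layer 5 IT nuclei of every library, those with the largest excess over other glutamatergic nuclei included an adhesion receptor, a carrier of Wnt proteins and a nuclear receptor. The values describe the members and carry no test, because the rule chose the nuclei on their counts. Ptprm, a receptor tyrosine phosphatase that mediates homophilic adhesion, led with 333 ± 66.5 CPM against 43.7 ± 1.76, and the ratio lay between 5.41 and 8.56 in the 4 libraries. BC006965 followed at 5.44 times the level of other glutamatergic nuclei. Among the next were Scube1, a secreted protein (3.29 times), Wls, the carrier of Wnt proteins to the cell surface (3.07 times), and Utrn, the homologue of dystrophin (3.01 times). Rora, a nuclear receptor, was at 2322 ± 247 CPM against 858 ± 67.1 and had a UMI in at least 99.0% of layer 5 IT nuclei of every library. Genes found in fewer nuclei were not ranked. They include Aldh1l1, listed among astrocyte markers, at 19.1 ± 4.44 CPM against 4.62 ± 0.49, and Hsd11b1.

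**Figure D1:**
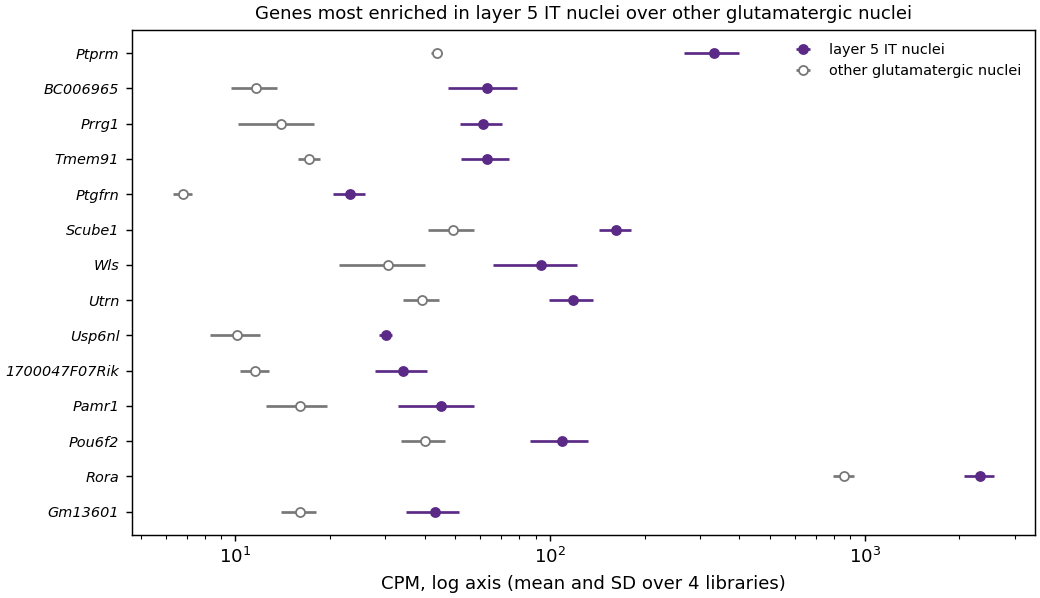
Mean CPM on a log axis, with the SD over 4 libraries, of 14 of the 15 genes with the largest ratio between layer 5 IT nuclei (filled points) and other glutamatergic nuclei (open points), among genes found in at least 20% of layer 5 IT nuclei of every library and with genes of the rule left out. Ptprm shows the widest gap, at 333 against 43.7 CPM, and Rora the highest level.

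The share of layer 5 IT nuclei among glutamatergic nuclei was 6.85% in fl/fl 1, 5.03% in fl/fl 2, 6.11% in SynCre 1 and 6.49% in SynCre 2. The control libraries held the highest and the lowest share, so the groups overlapped. The SynCre mean was higher by 0.359 percentage points (exact permutation test, two-sided, p = 1), and 2 against 2 libraries cannot go below p = 0.333. Without fl/fl 1 the difference was 1.27 points and without fl/fl 2 it was -0.55 points. When nuclei were thinned to 5000 UMIs before the rule, 156 members were left and the shares were 2.08%, 1.31%, 1.78% and 2.80%. A share of this kind depends on how many such nuclei there are and on how much marker RNA each yields, which cannot be told apart.

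Counts were then summed over the layer 5 IT nuclei of each library and compared between genotypes across 13112 genes with edgeR's quasi-likelihood test and Benjamini-Hochberg adjustment. At an adjusted p under 0.05, 118 genes were higher in Sel1L SynCre (0.900% of those tested) and 66 were lower (0.503%). The median log2 fold change of all genes tested was 0.0046. Without the library labelled fl/fl 1 the call count was 455, and 157 of the 184 genes were among them. Without fl/fl 2 it was 739, with 183 of the 184 among them. Without SynCre 1 or SynCre 2 the call counts were 200 and 222, with 116 and 122 of the 184 among them. DESeq2 called 68. The fit had no term for sex. Of 62 individually examined genes that edgeR called, 44 had an adjusted p in DESeq2 and 24 of these passed there. Where 1 library is left out, its genotype has a lone library that is assumed to vary like the pair of the other genotype. Without fl/fl 1 both rises and falls were called more often over all genes tested. A larger count for a gene list in that fit is therefore not read as particular to the list.

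ERAD genes and ER chaperones were the first lists examined. Of the 18 ERAD genes tested, 3 rose and none fell, and 10 lay above both controls in both SynCre libraries, against 22.0% of all genes. Of the 21 chaperones and folding enzymes, 7 rose and none fell, and 17 lay above. The median log2 fold change was 0.21 for ERAD and 0.64 for the chaperones. The lists were drawn up with earlier results of these data known and are described by counts alone. Without fl/fl 1 the counts that rose were 3 and 11.

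Sel1l, at chr12:91806043-91849157 on the minus strand, was not lower in Sel1L SynCre. Its TMM-scaled CPM, the level used for all genotype values, was 83.8 in fl/fl 1, 77.7 in fl/fl 2, 114.5 in SynCre 1 and 126 in SynCre 2, and both SynCre libraries were above both controls. The log2 fold change was 0.57 (SE 0.13, adjusted p = 0.0421). Without SynCre 1 it was 0.63 (adjusted p = 0.0633) and without SynCre 2 it was 0.50 (adjusted p = 0.263), so the call needed both libraries, and DESeq2 gave an adjusted p of 0.176. The assay counts 3′ ends, and where these lie relative to the floxed part is not given in the sources used here, so the level is no check of the deletion. Syvn1, which encodes HRD1, was at 10.9, 11.4, 15.8 and 12.9 in the same order, with a log2 fold change of 0.37 (SE 0.24, adjusted p = 0.587). Syvn1 overlaps Mrpl49 on the opposite strand.

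Herpud1, which recruits substrates to the HRD1 complex, rose from 16.9 and 20.9 to 40.6 and 48.5. The log2 fold change was 1.27 (SE 0.18, adjusted p = 0.00194), and 1.10 without fl/fl 1. Herpud1 overlaps the annotated gene Gm15890. Derl3, the derlin that helps move substrates out of the ER, had 2 UMIs in fl/fl 1, 0 in fl/fl 2, 35 in SynCre 1 and 20 in SynCre 2. Its log2 fold change was 5.11 (SE 0.73, adjusted p = 0.00214). With 3 UMIs as the floor of fl/fl 2, the level was at least 7.99-fold higher in Sel1L SynCre without fl/fl 1. The ratio of CPM over the summed counts was 40.6, with an exact 95% interval of 10.7 to 344 that covers counting error only.

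Hspa5, which encodes the chaperone BiP, was at 21.3 and 16.4 in the controls and at 56.1 and 48.0 in the SynCre libraries. The groups lay far apart, and the log2 fold change was 1.42 (SE 0.17, adjusted p = 0.000469; 1.66 without fl/fl 1). Dnajc3, a BiP cochaperone, rose from 34.8 and 43.0 to 88.4 and 81.1, a log2 fold change of 1.14 (SE 0.15, adjusted p = 0.0013). Sdf2l1, another partner of BiP, was low throughout, at 1.09 and 0.63 against 7.23 and 8.13 (log2 fold change 2.99, SE 0.49, adjusted p = 0.00651). Hsp90b1, which encodes GRP94, and Pdia6, a disulfide isomerase, rose by log2 fold changes of 0.86 and 1.01 (adjusted p = 0.0123 for each). Manf, a secreted ER stress protein, and Ppib, a proline isomerase, rose by 0.71 and 0.73 (adjusted p = 0.0233 and 0.0423). Their calls each needed 1 library, since Manf had an adjusted p of 0.149 without SynCre 2 and Ppib of 0.504 without SynCre 1. DESeq2 gave an adjusted p of 0.0563 for Pdia6, 0.121 for Manf and 0.144 for Ppib.

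Promoter sequence was set beside these rises. RefSeq promoter windows (GRCm38.p6, 250 bases before to 50 after each annotated start) were matched by symbol for 74 of the 118 higher genes. The ER stress element was searched as CCAAT, then 9 bases of any kind, then CCACG, on both strands. It occurred in 37 of 27025 genes with a window (0.137%), in 16 of the 9862 tested genes with one (0.162%), in 6 of the 74 higher genes (8.11%) and in 0 of 48 lower genes with a window. The 6 were Derl3, Dnajc3, Hsp90b1, Hspa5, Pdia6 and Hnrnpa3, and the first 5 belong to the ER lists. A match is a description of the letters and not a sign of binding. The 170 bases before the start of those 5 are printed because the genes moved together, with the outer letters of each match in capitals.
Hspa5, chr2:34771920-34772089, plus strand: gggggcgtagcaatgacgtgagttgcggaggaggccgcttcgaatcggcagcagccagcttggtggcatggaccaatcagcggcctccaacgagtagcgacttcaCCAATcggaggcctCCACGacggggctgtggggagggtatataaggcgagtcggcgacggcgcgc
Dnajc3, chr14:118937762-118937931, plus strand: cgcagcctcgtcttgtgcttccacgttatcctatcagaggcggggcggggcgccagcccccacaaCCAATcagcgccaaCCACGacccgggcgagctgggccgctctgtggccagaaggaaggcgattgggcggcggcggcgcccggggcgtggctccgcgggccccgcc
Pdia6, chr12:17266419-17266588, plus strand: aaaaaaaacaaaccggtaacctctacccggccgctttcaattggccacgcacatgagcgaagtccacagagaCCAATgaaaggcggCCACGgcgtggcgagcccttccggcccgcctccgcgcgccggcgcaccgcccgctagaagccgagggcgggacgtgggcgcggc
Hsp90b1, chr10:86705445-86705614, minus strand: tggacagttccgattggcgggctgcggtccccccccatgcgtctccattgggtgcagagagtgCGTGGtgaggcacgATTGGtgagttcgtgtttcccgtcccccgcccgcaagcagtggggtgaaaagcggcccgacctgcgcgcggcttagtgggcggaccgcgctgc
Derl3, chr10:75893228-75893397, plus strand: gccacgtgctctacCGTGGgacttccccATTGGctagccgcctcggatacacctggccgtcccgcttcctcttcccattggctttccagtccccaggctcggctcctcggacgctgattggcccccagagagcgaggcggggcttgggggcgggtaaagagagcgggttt

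In Hspa5, Dnajc3 and Pdia6 the element read forward, and in Derl3 and in the stretch shown for Hsp90b1 it read on the other strand. Hsp90b1 held a second match 212 bases before its start, outside the printed stretch.

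Among UPR sensors and stress transcription factors, 1 of 12 tested genes rose and none fell, and 8 lay above both controls in both SynCre libraries. Atf6 also rose without fl/fl 1. The gene that rose with all libraries was Ddit3, which encodes the transcription factor CHOP. It was at 2.46 and 2.84 in the controls and at 15.8 and 17.1 in the SynCre libraries, a log2 fold change of 2.66 (SE 0.32, adjusted p = 0.000469; 2.52 without fl/fl 1). The files list a second, overlapping feature with this symbol, which had too few counts to test. Ddit3 also overlaps Mars and Gm4189 on the opposite strand. Atf5 (log2 fold change 2.09, adjusted p = 0.0574), Creb3l2 (1.04, adjusted p = 0.159) and Xbp1 (0.54, adjusted p = 0.186) did not pass. With the replicate number, which stands for sex, added as a block, Atf5 passed.

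Of 8 ATF4 feedback and stress targets tested, 2 rose, Fam129a and Sesn2, and without fl/fl 1 the 2 were Fam129a and Jdp2. Fam129a, a phosphoprotein induced by ATF4 and also named Niban1, lies at chr1:151571186-151721939 and had the largest rise of all genes named by size. It had 3 UMIs in fl/fl 1, 0 in fl/fl 2, 62 in SynCre 1 and 31 in SynCre 2. The log2 fold change was 5.36 (SE 0.65, adjusted p = 0.000469), and the ratio of CPM was 45.8 with an exact 95% interval of 15.2 to 226 for counting error. By the same floor, the level was at least 13.5-fold higher without fl/fl 1, and the log2 fold change was 4.73 without SynCre 1. Sesn2, a stress-induced inhibitor of mTORC1 signalling, rose from 2.05 and 2.21 to 7.23 and 8.39 (log2 fold change 1.88, adjusted p = 0.0317). Its adjusted p was 0.0535 without fl/fl 1, 0.0739 without SynCre 1 and 0.246 without SynCre 2. Asns, asparagine synthetase, had a log2 fold change of 0.78 (adjusted p = 0.0729), and it passed with the replicate number added as a block.

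Of 9 amino acid transporters tested, 4 rose and none fell, and 8 lay above both controls in both SynCre libraries, with a median log2 fold change of 0.73. The count was 5 without fl/fl 1. Slc3a2, the heavy chain shared by several transporters, was at 49.4 and 48.3 in the controls and 87.0 and 82.9 in the SynCre libraries (log2 fold change 0.79, SE 0.14, adjusted p = 0.0115). Slc7a11, the cystine and glutamate exchanger, was at 3.14 in fl/fl 1, 0.32 in fl/fl 2, 15 in SynCre 1 and 7.35 in SynCre 2. Its log2 fold change of 2.41 (adjusted p = 0.0334) became 4.99 without fl/fl 1, where the lone control had 1 UMI and the ratio of CPM was 35.7 (exact 95% interval 6.24 to 1428), 1.81 without fl/fl 2, and 1.79 with an adjusted p of 0.175 without SynCre 1. The cationic transporters Slc7a3 and Slc7a1 rose by 1.12 and 0.76 (adjusted p = 0.0267 and 0.029), and without SynCre 1 their adjusted p was 0.188 and 0.0812 (DESeq2 adjusted p = 0.254 and 0.236 with all libraries). Of 20 cytosolic aminoacyl-tRNA synthetases, which charge tRNAs, 1 rose. This was Nars (log2 fold change 0.63, adjusted p = 0.0361), with adjusted p of 0.0527 without fl/fl 1, 0.123 without SynCre 1 and 0.071 without SynCre 2 and of 0.155 in DESeq2.

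Slc7a11 was 1 of 2 genes on these ATF4-related and ER lists that rose and whose window held the amino acid response element core TGATGNAA on either strand, and the other was Herpud1. The core occurred in 4.51% of all genes with a window, in 2.6% of tested genes with one and in 5 of the 74 higher genes (6.76%), against 2 of 48 lower genes (4.17%). The stretch before the start of Slc7a11 is shown because it held 2 copies, in capitals.
Slc7a11, chr3:50443614-50443783, minus strand: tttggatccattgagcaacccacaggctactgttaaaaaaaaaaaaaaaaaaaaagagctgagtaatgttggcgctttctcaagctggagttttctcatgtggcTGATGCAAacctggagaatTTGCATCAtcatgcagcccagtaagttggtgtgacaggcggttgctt

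Of the 8 tested genes of serine synthesis and mitochondrial folate metabolism, 6 lay above both controls in both SynCre libraries, and the median log2 fold change was 0.90. None passed in this fit, which had no term for sex. Mthfd2, a mitochondrial folate dehydrogenase, was closest, at 9.97, 17.1, 24.2 and 26.8 (log2 fold change 0.99, SE 0.24, adjusted p = 0.0505). It passed when the replicate number, which stands for sex, was added as a block. Phgdh, the first enzyme of serine synthesis, was low at 1.64, 0.95, 5.56 and 3.93 (1.73, adjusted p = 0.123), and the values of Shmt2 and Psph were 1.45 (adjusted p = 0.178) and 0.78 (adjusted p = 0.138). Shmt2 passed without fl/fl 1, at 2.67 (adjusted p = 0.0217), with 3 UMIs in fl/fl 2 and a ratio of CPM of 6.68 (exact 95% interval 2.15 to 33.6). No gene passed among 8 of the cytosolic folate and methionine cycle, 6 of transsulfuration and glutathione synthesis or 18 of cholesterol synthesis. Their medians were -0.0082, -0.037 and 0.066.

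**Figure D2:**
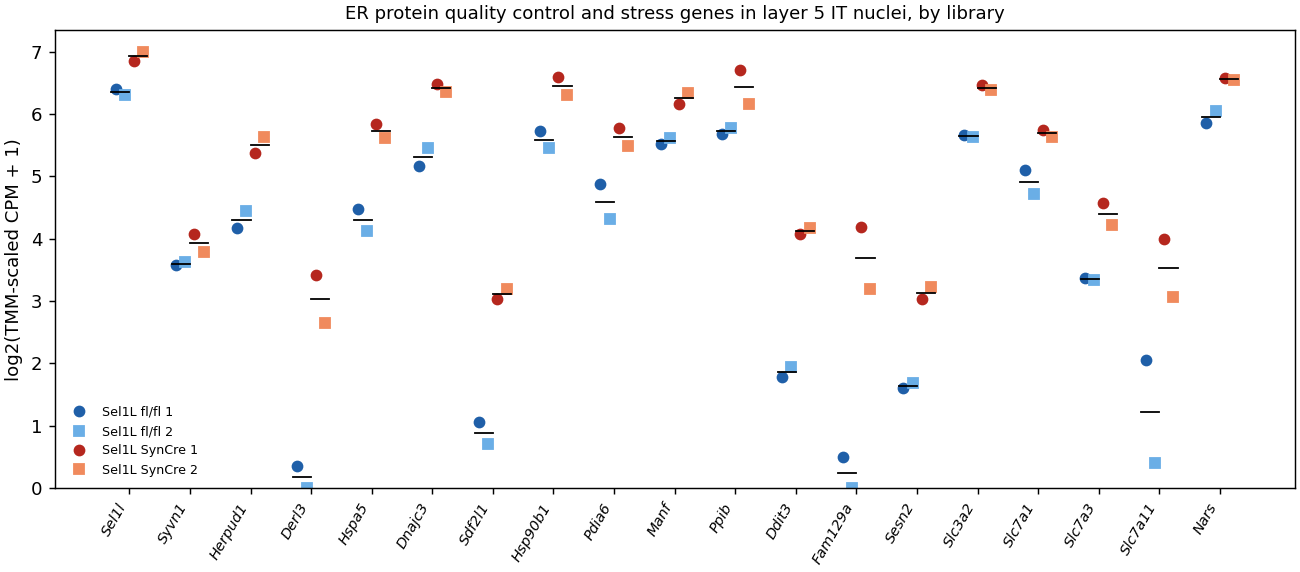
Log2 of TMM-scaled CPM plus 1 of ER, stress and amino acid genes in layer 5 IT nuclei, 1 point per library and a line at each genotype's mean. Both SynCre libraries lie above both control libraries for all genes shown, and Derl3 and Fam129a are at 0 in fl/fl 2.

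Several of these genes were also higher in other cells of the SynCre libraries. Nuclei without Slc17a7, Gad1 or Gad2 and with at least 4 of 7 oligodendrocyte markers should lack a neuronal Cre, and their Hspa5 level was 40.3 CPM in fl/fl 1, 38.4 in fl/fl 2, 200.5 in SynCre 1 and 93.7 in SynCre 2. That was above the layer 5 IT nuclei of each library. In the oligodendrocyte gate nuclei Sel1l was at 113, 99.9, 280 and 169 CPM, Ddit3 at 12.4, 10.4, 50.3 and 43.8, and Derl3 at 0.27, 0.82, 37.7 and 5.09. Fam129a did not follow, at 1.37, 1.10, 2.36 and 0 CPM in the oligodendrocyte gate nuclei against 16.9 and 8.48 in layer 5 IT nuclei of SynCre 1 and SynCre 2. In SynCre 1 the layer 5 IT nuclei held 62 UMIs of Fam129a and 35 of Derl3, whereas the oligodendrocyte gate nuclei held 3 and 48. In SynCre 2 the layer 5 IT nuclei held more of both, 31 and 20 UMIs against 0 and 5. The part of RNA from outside the nucleus in the layer 5 IT values was not tested.

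The spread of the response among single nuclei was measured with 14 stress genes, which were Atf3, Chac1, Creb3l2, Cth, Cyb5r2, Ddit3, Derl3, Fam129a, Herpud1, Manf, Sdf2l1, Sesn2, Slc7a3 and Trib3. Of these, 8 rose in the summed counts, Creb3l2 did not pass and 5 had too few counts to test, so the readout is not independent of the rises above. The 8 became 7 without fl/fl 1. Manf and Herpud1 were found in the most nuclei. The share with Creb3l2 in nuclei thinned to 5000 UMIs was 3.64%, 3.59%, 3.52% and 3.67% by library. Without thinning it was 9.50%, 6.59%, 14.1% and 14.6%, higher in both SynCre libraries than in both controls. Each nucleus was thinned to 5000 UMIs, and 2 layer 5 IT nuclei with fewer were left out. UMIs of at least 2 of the 14 genes were found in 18 of 357 nuclei of fl/fl 1 (5.04%, Wilson 95% interval 3.21 to 7.83), 13 of 167 of fl/fl 2 (7.78%, 4.61 to 12.9), 47 of 199 of SynCre 1 (23.6%, 18.3 to 30.0) and 41 of 218 of SynCre 2 (18.8%, 14.2 to 24.5). The SynCre libraries did not overlap with the controls. The means were 6.41% ± 1.94 and 21.2% ± 3.40 (SD, n = 2 each), a difference of 14.8 points (p = 0.333 by an exact two-sided permutation, which 4 libraries cannot go below). It was 16.2 points with fl/fl 1 as the lone control and 13.4 with fl/fl 2. Intervals cover counting error only.

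At 5000 UMIs no UMI of the 14 genes was found in 49.7% of nuclei of SynCre 1 and 49.5% of SynCre 2, against 61.1% and 64.1% in the controls. At least 3 were found in 10.6% and 7.34% of SynCre nuclei and in 0.56% and 0.60% of control nuclei. Without thinning, at least 1 was found in 79.1%, 76.6%, 85.4% and 84.0% of nuclei in the order above, so the share with none depends on depth. At least 2 were then found in 37.2%, 40.7%, 49.2% and 47.0%. At 5000 UMIs, other glutamatergic nuclei had means of 5.48% in the controls and 18.1% in Sel1L SynCre, Cux2 nuclei 4.33% and 13.0%, and layer 6 IT gate nuclei 5.93% and 7.24%. These differences between classes were not tested.

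In oligodendrocyte gate nuclei 22.2%, 16.2%, 52.7% and 21.1% held at least 2 of the genes, from 379, 117, 55 and 19 nuclei with 5000 UMIs. The layer 5 IT shares were below these in all 4 libraries. Creb3l2 alone was found in 38.8%, 38.5%, 25.5% and 10.5% of these oligodendrocyte gate nuclei, highest in the controls. In layer 5 IT nuclei it was found in 3.64%, 3.59%, 3.52% and 3.67%. The gap between the classes is therefore not read as a difference in stress. Over all oligodendrocyte gate nuclei without thinning, the shares with at least 2 of the 14 genes were 16.5% of 1823, 10.1% of 1125, 44.0% of 359 and 23.6% of 330. Both SynCre libraries lay above both controls. Derl3 alone was found in 7.54% of layer 5 IT nuclei of SynCre 1 and in 11 of 55 (20%) of its oligodendrocyte gate nuclei, and in SynCre 2 in 1.83% and in 1 of 19. Without thinning, Derl3 was found in 12.1% of layer 5 IT and 11.7% of oligodendrocyte gate nuclei of SynCre 1, and in 6.85% and 1.52% in SynCre 2, at median depths of 16667 and 2861 UMIs and of 15075 and 2655 UMIs. No difference between the classes is read from these shares. Fam129a was found in 5.53% and 1.83% of layer 5 IT nuclei of SynCre 1 and SynCre 2, in 1 of 55 (1.82%) and 0 of 19 of the oligodendrocyte gate nuclei, and in 0 of 357 and 0 of 167 control layer 5 IT nuclei. Counts of 0 allow shares with a UMI at this depth of up to 15.8%, 0.840% and 1.80% in the last 3. They set no limit on the share of nuclei that express Fam129a. Without thinning it was found in 3 of 358 layer 5 IT nuclei of fl/fl 1. Before thinning, the median depth of SynCre 1 and SynCre 2 nuclei with at least 5000 UMIs was 16667 and 15081 UMIs for layer 5 IT and 6439 and 6296 for oligodendrocyte gate nuclei.

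**Figure D3:**
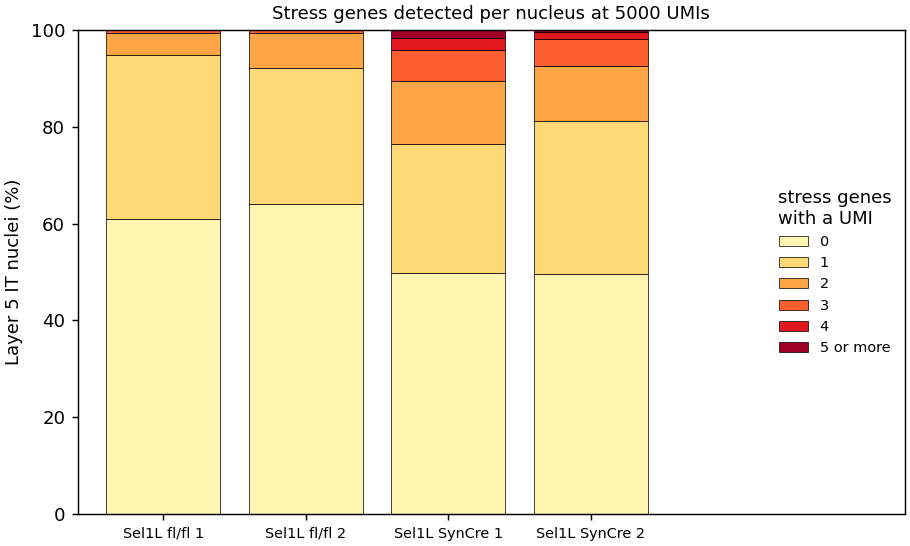
Percent of layer 5 IT nuclei of each library, thinned to 5000 UMIs, with UMIs of 0 to 5 or more of 14 stress genes. Nuclei with at least 3 make up 10.6% and 7.34% in the SynCre libraries and 0.56% and 0.60% in the controls.

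Immediate early genes, which neurons switch on after synaptic activity, formed another list whose calls were all rises. Of 18 tested, 9 rose and none fell, 11 lay above both controls in both SynCre libraries, and the median log2 fold change was 0.82. Without fl/fl 1, 10 rose. Homer1, whose short activity-induced form loosens synaptic scaffolds, lies at chr13:93299635-93405129. It was at 267 in fl/fl 1, 202 in fl/fl 2, 636 in SynCre 1 and 630 in SynCre 2, and the SynCre libraries lay far above the spread of the controls. The log2 fold change was 1.43 (SE 0.15, adjusted p = 0.000247; 1.65 without fl/fl 1).

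Egr3, a zinc finger transcription factor, went from 13.9 and 7.58 to 42.5 and 61.6 (log2 fold change 2.19, SE 0.24, adjusted p = 0.000247; 2.78 without fl/fl 1). Bdnf, the neurotrophin, went from 17.5 and 12.3 to 44.2 and 55.1 (1.68, SE 0.19, adjusted p = 0.000379). The orphan receptors Nr4a3, Nr4a2 and Nr4a1 rose by 2.09, 1.12 and 0.76 (adjusted p = 0.000469, 0.016 and 0.0148). Fosl2, a partner of Jun in AP-1, rose by 2.31 (adjusted p = 0.00358) from 2.46 and 2.53 to 12.8 and 12.1. Btg2 and the phosphatase Dusp1 rose by 1.04 and 1.08 (adjusted p = 0.0304 and 0.0476). Btg2 had an adjusted p of 0.194 without SynCre 2, and Dusp1 a log2 fold change of 1.71 without fl/fl 1. DESeq2 gave an adjusted p of 0.185 for Nr4a2, 0.203 for Btg2 and 0.299 for Dusp1.

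Other genes that rose are named after their values were seen and form no list. They were Vgf (1.41, adjusted p = 0.00755) and Scg2 (1.36, adjusted p = 0.0156), both granule proteins, the synaptic pentraxin Nptx2 (1.33, adjusted p = 0.0156), Tiparp (1.91, adjusted p = 0.000247) and the glucocorticoid-induced gene Fkbp5 (1.18, adjusted p = 0.00255). DESeq2 gave an adjusted p of 0.115 for Scg2 and 0.110 for Nptx2. Fkbp5 overlaps other annotated genes on both strands, and it was at 30.6, 72.5, 269 and 495 CPM in the oligodendrocyte gate nuclei against 21.3, 26.3, 46.1 and 63.7 in layer 5 IT nuclei, higher in both SynCre libraries in each class.

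Homer1, Egr3 and Bdnf were lower in the oligodendrocyte gate nuclei than in the layer 5 IT nuclei of every library. Homer1 was at 65.7, 53.2, 74.7 and 76.4 CPM in them and Egr3 at 2.61, 1.92, 3.93 and 7.13, in the order fl/fl 1, fl/fl 2, SynCre 1 and SynCre 2. Bdnf was at 3.30, 6.31, 6.29 and 6.11. No test was run on this contrast.

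The full cAMP response element TGACGTCA, a site bound by CREB, was found in 2.03% of all genes with a window, in 3.74% of tested genes with one and in 6 of the 74 higher genes (8.11%), namely Arl5b, Btg2, Dusp1, Pcsk1, Scg2 and Zdbf2. Btg2 and Dusp1 belong to the immediate early list, and their stretches are printed with the element in capitals.
Btg2, chr1:134079156-134079325, minus strand: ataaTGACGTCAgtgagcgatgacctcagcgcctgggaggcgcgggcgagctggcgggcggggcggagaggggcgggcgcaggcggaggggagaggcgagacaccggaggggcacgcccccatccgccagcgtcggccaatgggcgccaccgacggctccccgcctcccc
Dusp1, chr17:26508473-26508642, minus strand: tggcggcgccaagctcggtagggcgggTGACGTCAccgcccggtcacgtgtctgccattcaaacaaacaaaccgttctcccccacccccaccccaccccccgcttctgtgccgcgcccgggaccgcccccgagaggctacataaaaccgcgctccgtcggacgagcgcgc

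Receptor and channel genes held few calls. Of 21 glutamate receptor genes 2 fell and none rose, and 7 lay below both controls in both SynCre libraries, against 20.3% of all genes. Gria4, an AMPA receptor subunit, was at 1375 and 1416 in the controls and at 974 and 831 in the SynCre libraries (log2 fold change -0.63, SE 0.15, adjusted p = 0.0463). Grik1, a kainate receptor subunit, was at 48.7 and 51.8 against 28.1 and 31.2 (-0.75, SE 0.15, adjusted p = 0.019). In oligodendrocyte gate nuclei of fl/fl 1, fl/fl 2, SynCre 1 and SynCre 2, Grik1 was at 169, 81.8, 58.2 and 47.8 CPM. These values were above its layer 5 IT level in every library and lower in both SynCre libraries. The part of RNA from those cells in the fall of Grik1 was not tested. Both calls depended on single libraries, since Gria4 had an adjusted p of 0.0509 without SynCre 1 and 0.323 without SynCre 2, and Grik1 of 0.117 without SynCre 1 and of 0.167 in DESeq2. Of the glutamate receptor genes, 5 fell without fl/fl 1. With all libraries and no term for sex, none of 12 GABA-A receptor subunits, 21 potassium channels or 15 sodium and calcium channels passed. Without fl/fl 1, 2 GABA-A subunits, 1 potassium channel and 1 sodium or calcium channel fell, and the potassium channel Kcnd3 rose. Below both controls in both SynCre libraries lay 7, 5 and 10 of them, with medians of -0.27, -0.090 and -0.32. Gabra3 (-0.57, adjusted p = 0.0635) and Cacna1b (-0.45, adjusted p = 0.0795) had the smallest adjusted p among them with all libraries. Both passed when the replicate number, which stands for sex, was added as a block.

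Of 5 layer 5 IT markers outside the rule that were tested, 1 rose, 1 fell and 3 did not pass. Etv1 fell in Sel1L SynCre, from 209 in fl/fl 1 and 299 in fl/fl 2 to 153 in SynCre 1 and 120 in SynCre 2. The groups did not overlap, and the log2 fold change was -0.89 (SE 0.16, adjusted p = 0.0123; -1.13 without fl/fl 1). S100b, a calcium-binding protein listed as a layer 5 IT marker and better known from astrocytes, rose from 19.1 and 19.6 to 35.0 and 45.4 (1.06, SE 0.18, adjusted p = 0.00903), and it overlaps Dip2a on the other strand. Rorb (-0.39, adjusted p = 0.4) did not pass. Foxp2 fell by 0.89 (adjusted p = 0.045), and its value was -1.38 without SynCre 1 and -0.53 without SynCre 2 (adjusted p = 0.404), with a DESeq2 adjusted p of 0.231. A shift of level within these cells and a shift in which cells met the rule cannot be told apart.

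**Figure D4:**
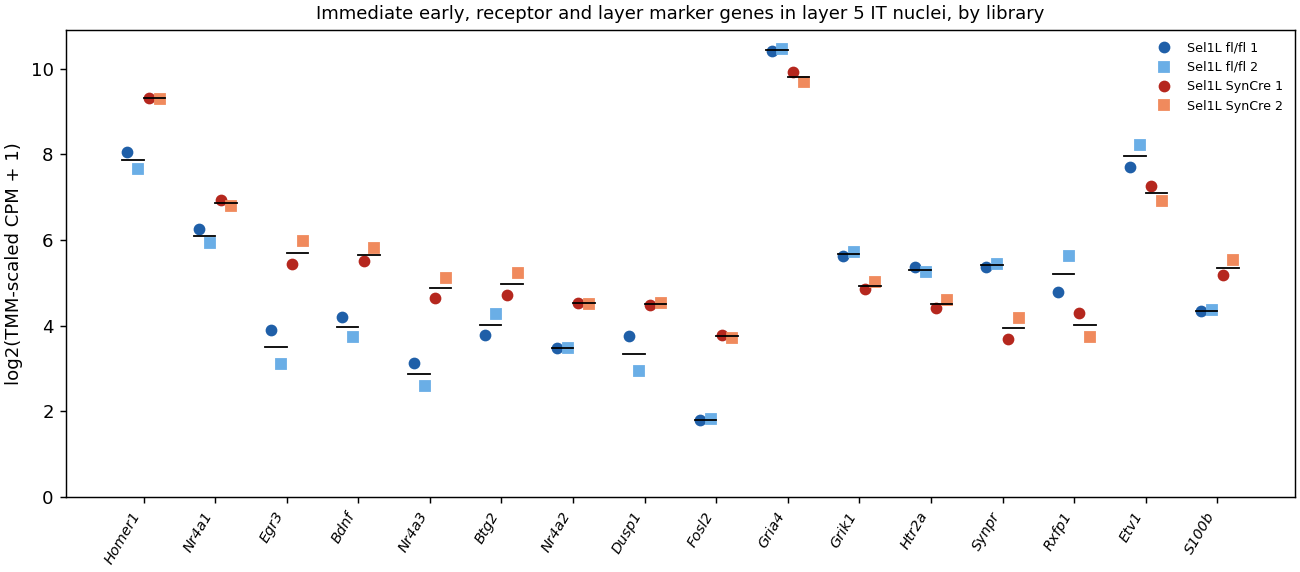
Log2 of TMM-scaled CPM plus 1 of immediate early genes, receptors and layer markers in layer 5 IT nuclei, 1 point per library and a line at each genotype's mean. The 9 immediate early genes and S100b are higher and the other genes lower in both SynCre libraries than in both controls.

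The largest falls were led by genes of oligodendrocytes. Mal, a myelin proteolipid, was at 8.47, 4.11, 0.83 and 0.26 in the order fl/fl 1, fl/fl 2, SynCre 1 and SynCre 2 (log2 fold change -3.55, adjusted p = 0.0123). The myelin gene Mog fell by 2.38 (adjusted p = 0.0156), and Prr5l and St18, both high in oligodendrocytes here, by 2.67 and 2.15 (adjusted p = 0.0459 and 0.0309). Plekhg1 went from 10.1 and 8.22 to 1.11 and 1.31 (-2.91, adjusted p = 0.00392). In the oligodendrocyte gate nuclei Plekhg1 stood at 711, 534, 543 and 394 CPM in the same order, where the genotypes overlapped, and St18 at 3727, 2945, 2583 and 2168. Erbb4, a neuregulin receptor listed among the inhibitory neuron markers, was at 107, 43.3, 25.0 and 39.9 in layer 5 IT nuclei (-1.23, adjusted p = 0.0472) and at 2854, 2276, 1779 and 1505 CPM in the oligodendrocyte gate nuclei.

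Oligodendrocyte content also differed between the libraries. The 7 oligodendrocyte markers summed to 266 CPM in layer 5 IT nuclei of fl/fl 1, 104 in fl/fl 2, 149 in SynCre 1 and 115 in SynCre 2. Mbp was the most abundant and none was at 0 in all libraries. Of the 7, 3 fell and 4 were lower in both SynCre libraries than in both controls. Mbp itself was at 149, 52.5, 114 and 87.1 (log2 fold change -0.012, adjusted p = 0.979), and without fl/fl 1 it was higher in Sel1L SynCre by 0.94. Oligodendrocyte gate nuclei made up 14.7% and 13.3% of kept nuclei in the controls and 4.45% and 4.56% in the SynCre libraries. Without fl/fl 1 the log2 fold changes were -2.85 for Mal (adjusted p = 0.118), -1.65 for Mog (0.21), -1.44 for Prr5l (0.473), -0.58 for St18 (0.592), -0.41 for Erbb4 (0.337) and -2.72 for Plekhg1 (0.00378). Mal was at -4.54 without SynCre 1, from 1 UMI in SynCre 2 and a ratio of control over SynCre CPM of 25.4 (exact 95% interval 4.42 to 1015), and at -2.96 without SynCre 2. St18 was at -2.86 and Prr5l at -3.26 without fl/fl 2, and Prr5l at -1.86 without SynCre 2. Without SynCre 1, Prr5l was at -5.14, from 1 UMI in SynCre 2, and the controls stood 40.2 times higher in CPM (exact 95% interval 7.09 to 1603). DESeq2 gave an adjusted p of 0.771 for St18 and 0.901 for Erbb4. The part of oligodendrocyte RNA in these falls was not tested.

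Of the other genes among the 10 largest rises and falls, Ror1, a receptor of Wnt5a, fell from 14.9 and 16.1 to 3.06 and 6.03 (-1.74, adjusted p = 0.0123), and Ndst4, an enzyme of heparan sulfate synthesis, from 9.83 and 22.1 to 5.28 and 2.62 (-1.97, adjusted p = 0.0335, and -1.32 without fl/fl 2). The long noncoding Gm48530 and Gm26760 fell by 1.94 and 1.81 (adjusted p = 0.0123 and 0.0304, and 0.0876 for Gm26760 without SynCre 2). Among rises, the noncoding 1700016P03Rik went from 35.0 and 15.2 to 117 and 134 (2.27, adjusted p = 0.000247, and 3.05 without fl/fl 1). It overlaps Ovca2 on the other strand. Gm2682 and Anxa11os, an antisense gene of Anxa11, rose by 3.0 and 2.49 (adjusted p = 0.0123 and 0.0163) and had adjusted p of 0.133 and 0.3 without SynCre 1.

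To see where the genotype effect was larger or smaller than in related cells, a model with the library as a block compared it with that in 14225 other glutamatergic nuclei, 3520 Cux2 nuclei and 564 layer 6 IT gate nuclei. The difference passed an adjusted p of 0.05 for 50 of 18646 genes against other glutamatergic nuclei (0.268%), 26 of 16247 against Cux2 nuclei (0.160%) and 7 of 13474 against layer 6 IT gate nuclei (0.0520%). Against other glutamatergic nuclei 16 were more positive and 34 more negative. DESeq2 called 3, 0 and 2 (266, 162 and 93 at an unadjusted p under 0.05). With the larger classes thinned to the layer 5 IT totals, 13 and 0 were called by edgeR against other glutamatergic and Cux2 nuclei (897 and 882 at an unadjusted p under 0.05). Of the ER, ATF4-related and immediate early genes named above, Bdnf alone passed in the first contrast, where its rise was larger by 0.70 (SE 0.16, adjusted p = 0.0269). Whether this call held without 1 library, in DESeq2 or with the other class thinned is not reported here.

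Luzp2, a leucine zipper protein, had the smallest adjusted p. It was at 49.3, 52.5, 119 and 90.8 in layer 5 IT nuclei, a log2 fold change of 1.04 (SE 0.15, adjusted p = 0.00304), against 0.028 (SE 0.13) in other glutamatergic nuclei. The difference was 1.00 (SE 0.10, adjusted p = 1.11e-09). Pcdh11x, a protocadherin, did not pass in either class, at 0.28 in layer 5 IT nuclei and -0.34 in the others, but the difference of 0.59 did (adjusted p = 4.97e-05). It also passed against layer 6 IT gate nuclei, by 1.26 (adjusted p = 9.55e-05). Pcdh11x overlaps another annotated gene, H2afb3. In oligodendrocyte gate nuclei Pcdh11x was at 286, 247, 349 and 512 CPM, above its layer 5 IT level in every library and higher in both SynCre libraries, and Luzp2 at 285, 230, 280 and 110. The Notch coactivator Maml3 differed by 0.56 (adjusted p = 0.000197), and its own log2 fold change in layer 5 IT nuclei was 0.72 (adjusted p = 0.16).

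Synpr, a synaptic vesicle protein, went from 40.3 and 42.7 to 11.9 and 17.1 in layer 5 IT nuclei (-1.5, SE 0.19, adjusted p = 0.000806) and was at -0.44 in other glutamatergic nuclei, a difference of -1.07 (adjusted p = 9.84e-05). Without SynCre 1 the difference was -0.73 (adjusted p = 0.0516). In oligodendrocyte gate nuclei Synpr was at 491, 436, 301 and 296 CPM, above its layer 5 IT level in every library and lower in both SynCre libraries. Htr2a, the serotonin 2A receptor, fell in layer 5 IT nuclei from 40.1 and 37.0 to 20.3 and 23.1 (-0.84, adjusted p = 0.0204, and 0.0833 without SynCre 1, and 0.198 in DESeq2), with 0.077 in the others. Its difference of -1.0 (adjusted p = 0.000412) was -0.68 without fl/fl 1 (adjusted p = 0.218). Rxfp1, the relaxin receptor, fell from 26.8 and 48.7 to 18.6 and 12.3 (-1.26, adjusted p = 0.0304), with -0.80 without fl/fl 2, and the difference was -1.0 (adjusted p = 0.000412). Ust, a sulfotransferase, and Ntng1, a netrin-G that binds synaptic partners, differed by -0.87 (adjusted p = 0.000133) and -0.56 (adjusted p = 4.97e-05). The value of Ust without fl/fl 1 was -0.67 (adjusted p = 0.104). Ust was at 191, 212, 97.5 and 75.3 CPM in oligodendrocyte gate nuclei against 54.6, 42.0, 23.2 and 24.6 in layer 5 IT nuclei, and the part of RNA from those cells in the values of Luzp2, Pcdh11x, Synpr and Ust was not tested. Etv1 also fell further than in other glutamatergic nuclei, with a difference of -0.45 (SE 0.084, adjusted p = 0.00251). Whether that difference held without 1 library, in DESeq2 or with the other class thinned is not reported here.

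**Figure D5:**
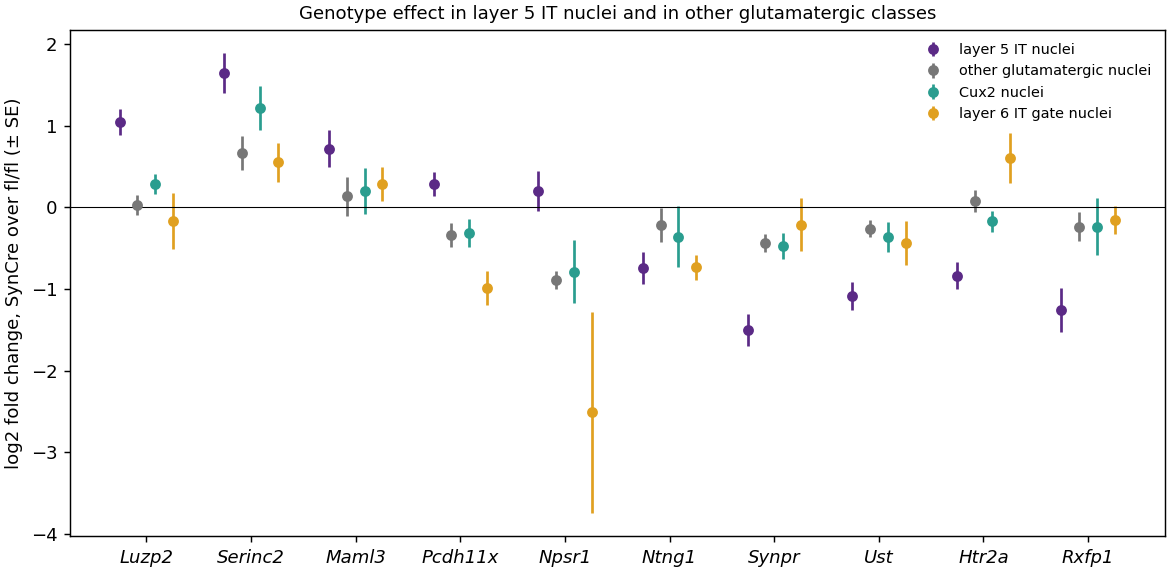
Log2 fold change of Sel1L SynCre over Sel1L fl/fl, with its SE, in layer 5 IT nuclei and 3 other classes for the 10 genes with the smallest adjusted p of the difference from other glutamatergic nuclei, 5 in each direction. Luzp2 is at 1.04 in layer 5 IT nuclei and 0.028 in other glutamatergic nuclei, and Synpr at -1.5 and -0.44.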

How the data were processed

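Nuclei were isolated from cortex and hippocampus and sorted, and libraries were made with the 10x 3′ v3 kit. The authors deposited filtered UMI count matrices, which the submitters' processing notes credit to Cell Ranger 6.1.0 with GRCm38, and no values were normalized before deposit. The counts include a Cre feature. The authors removed doublets before clustering. Here no doublet was removed in the main analysis, and Scrublet (scanpy 1.11.5) gave an alternative. Members and gene lists were chosen with earlier results of these data known.

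Counts were summed over members of each library and tested in edgeR 4.0.16 (R 4.3.3) with TMM scaling, filterByExpr and a quasi-likelihood fit on genotype. CPM in genotype results is TMM-scaled, and CPM in marker and oligodendrocyte values is the count scaled to the UMI total of the class. Contrasts between classes added the library as a block. DESeq2 1.42.0 was an alternative. Scripts were tested on simulated data. Genes named were Sel1l, Syvn1 and Cre, the 10 largest rises and falls among calls with at least 20 UMIs and separated libraries, the 4 smallest adjusted p and any other call of each pathway list, and 5 per direction in each contrast. Gene positions come from GENCODE for GRCm38. Whether reads were counted by strand is not given in the sources used here, so overlapping genes are uncertain. Beyond the overlaps named above, Manf, Pdia6, Ppib, Atf5, Jdp2, Slc7a11, Psph, Shmt2, Bdnf, Dusp1, Prr5l and Maml3 overlap annotated genes on the other strand. Hsp90b1, Sesn2, Erbb4, Ror1 and Rxfp1 overlap annotated genes on their own strand. A few genes that this rule names are not reported here.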

Additional observations from a re-analysis of the deposited data

Results flagged for a closer look

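The genotype effect in layer 5 IT nuclei differed from that in another class of the same libraries for the genes below, by a test of the difference in edgeR. Against other glutamatergic nuclei the log2 difference was 1.00 for Luzp2, 0.59 for Pcdh11x, 0.56 for Maml3, 1.01 for Serinc2 (adjusted p = 0.00387) and 1.09 for Npsr1 (adjusted p = 0.00399). It was -0.56 for Ntng1, -1.07 for Synpr, -0.87 for Ust, -1.0 for Htr2a and -1.0 for Rxfp1. Without fl/fl 1 the values of Serinc2 and Npsr1 were 0.89 and 0.76 (adjusted p = 0.365 and 0.312), and without SynCre 1 that of Serinc2 was 0.86 (adjusted p = 0.0864).

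Against Cux2 nuclei the differences were 0.58 for Pcdh11x, 0.75 for Luzp2, 0.51 for Maml3, 0.81 for Serpine2, -0.88 for Erbb4, -0.90 for Grik1, -1.10 for Rxfp1, -2.08 for Ndst4 and -1.5 for Arhgap6, with adjusted p from 0.0133 to 0.0447. None of them passed with DESeq2 or with the Cux2 nuclei thinned. Leaving out a library ended each call: without fl/fl 1 the adjusted p was 0.0591 for Pcdh11x, 0.364 for Luzp2, 0.221 for Maml3, 0.094 for Serpine2, 0.194 for Erbb4, 0.0659 for Grik1, 0.0941 for Rxfp1 and 0.09 for Arhgap6, and without SynCre 2 it was 0.294 for Ndst4.

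Against layer 6 IT gate nuclei the differences were 1.26 for Pcdh11x, 0.96 for Tshz2, 1.11 for Ndst3, -1.11 for Sdk1, -0.77 for Plcxd3, -1.52 for Lurap1l and -0.52 for Prkg1 (adjusted p = 0.109 for Prkg1 without SynCre 1).

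The library labelled fl/fl 1 held 37 Cre UMIs in layer 5 IT nuclei, where the other control held 0.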

How the results depend on the processing

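The 184 genes called between genotypes became 68 with DESeq2 and 415 with no low-count filter. They became 14 with at least 3 of the 5 markers, 94 with no UMI of the layer 6 IT genes and 9 when the rule was applied to nuclei thinned to 5000 UMIs, all of which use fewer nuclei. Leaving out 1 library gave 200 to 739. Other scaling, a filter of 10 UMIs in every library, thinned sums and leaving out doublets gave 133 to 213. Differences against other glutamatergic nuclei (50) became 3 with DESeq2 and 13 with that class thinned, and 51 to 70 without 1 library. Those against Cux2 nuclei (26) became 0, 0 and 10 to 107, and those against layer 6 IT gate nuclei (7) became 2 with DESeq2 and 24 to 87 without 1 library. Thinning left the layer 6 IT gate counts as they were. The cause of these moves was not tested. The replicate numbers pair no animals by the labels and stand for sex. With the replicate block 401 genes were called, all 184 among them. Under it 13 named genes that had not passed did, Mthfd2 (adjusted p = 0.0114), Atf5 (0.0449), Asns (0.0386), Gabra3 (0.0187) and Cacna1b (0.0214) among them, and the correlation across 13123 genes of replicate 1 minus replicate 2 between the genotypes was 0.199. The share of layer 5 IT nuclei differed by -0.55 to 1.27 points without 1 library. The stress gene difference of 14.8 points was 9.20 without thinning and 8.37 with at least 3 genes, and 12.4 to 17.2 without 1 library. Direction reversed for Erbb4 with at least 3 markers (0.067) and for Mbp without fl/fl 1 (0.94, against -0.57 without fl/fl 2).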
